A study of Mus musculus with 4 samples.

Results

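Genes of mitochondrial transport were taken from the liver RNA-Seq table by symbol, as those that begin with Slc25a and a digit, Timm or Tomm. This gave 35 genes of the 7000 listed, of which 22 are Slc25a carriers and 13 are Tomm or Timm genes of protein import. The liver RNA came from male FVB/N mice given the diets from weaning for 6 weeks, with 2 mice fed the 0 Se diet (0 ppm Se added) and 2 mice fed the 0.1 Se diet (0.1 ppm Se added as sodium selenite). Both diets were based on torula yeast, and whole liver was used, so the RNA of hepatocytes and of other liver cells was measured together.

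The table holds 1 level for each gene, the authors' log2 mean CPM over the 4 libraries, and 0 columns for single mice. CPM are the reads of a gene scaled to the size of its library. The levels below are therefore averages over both diets. The spread between mice, the depth of each library and a difference between the diets were not analysed here, and no order of genes given below was tested against replicate error. Levels are compared between genes as CPM per kilobase, the mean CPM divided by the length of the listed mRNA. Fewer cells of a type and less RNA per cell cannot be told apart in such bulk samples.

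Mitochondria keep their own small genome, but most of their proteins are made in the cytosol and must be imported. The TOM complex is the entry gate of the outer membrane, the TIM23 complex passes on proteins with a presequence, and small Tim chaperones guide membrane proteins such as the carriers to the TIM22 complex, which inserts them into the inner membrane. The Slc25a carriers then exchange nucleotides, phosphate, citrate, amino acids and cofactors across that membrane. In liver they serve ATP export, the urea cycle, gluconeogenesis and lipid synthesis.

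The label of the tissue was checked against marker genes. Of 8 hepatocyte markers 3 were listed, and these, Apoa1, Cyp2e1 and Serpina1a, had 7619, 4180 and 1230 CPM per kilobase, and Serpina1a, the lowest of these, was at the 99.5th percentile of the listed genes. All 5 Kupffer cell markers were listed, at 5.15 to 74.8 CPM per kilobase, as were 3 of 4 endothelial and 4 of 4 stellate cell markers, at 8.52 to 16.4 and 1.03 to 98.3. The 4 cholangiocyte, 2 erythroid and 3 skeletal muscle markers are outside the table, as are 5 hepatocyte markers, and since the table holds only part of the genes this says nothing of their levels. The part of the non-hepatocyte cells in the levels of the carriers was not tested.

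The 35 mRNAs ran from 1.12 to 306 CPM per kilobase, a 272-fold range, with a median of 15.3 against 6.19 for all listed genes. Above the median of the listed genes lay 26 of the 35, and 21 when CPM was not divided by length. Per kilobase of mRNA, 16 members were above the 75th percentile (18.0 CPM per kilobase) and 4 above the 90th (57.5), while 2 members were below the 25th (2.09). The members were 0.5% of the listed genes and held 0.318% of their summed CPM per kilobase.

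**Figure D1:**
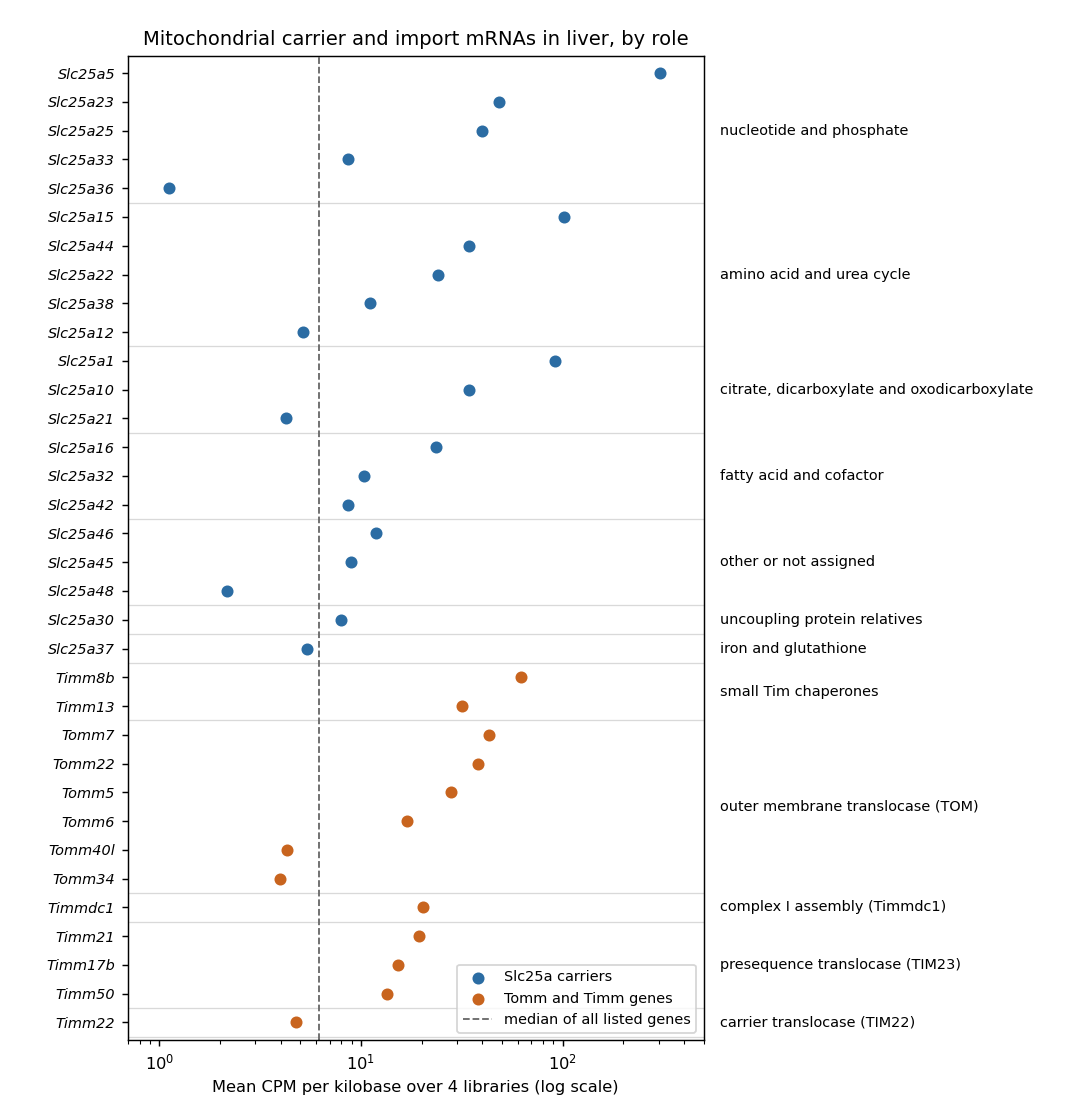
Mean level of 34 of the 35 members in liver, in CPM per kilobase on a log axis, grouped by role, with 1 point for each gene (the authors' mean over 4 libraries, so no error bars) and the median of all listed genes (6.19) as a dashed line. Slc25a5 stands alone at 306, and 3 of the 13 import genes lie below the line.

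Among the nucleotide and phosphate carriers, Slc25a5, the ADP/ATP carrier that exports ATP to the cytosol, was the most abundant member. It had 378 CPM, or 306 CPM per kilobase, which was rank 177 of the listed genes. Of the 48 carriers gathered by role only 22 were listed, and Slc25a5 held 38.6% of the summed level of these 22. That share was 20.8% in CPM and 23.0% per kilobase of coding sequence. Its gene lies on chromosome X from 34335646 to 34338802 of NCBIM37 (mm9) and has 4 exons. The related Slc25a4 and Slc25a31 are not in the table. The study kept unique alignments only, and no 50-base stretch of the Slc25a5 transcript occurred exactly in a transcript of another protein-coding gene. Pseudogenes and stretches with mismatches were not searched.

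Slc25a23 and Slc25a25, carriers that exchange ATP-Mg for phosphate and respond to calcium, were at 48.5 and 39.8 CPM per kilobase. Slc25a23 was 1.22-fold the level of Slc25a25, a ratio of means over both diets with no replicate error. The paper lists Slc25a25 among the liver mRNAs that fell most in its RNA-Seq with added selenium. The ratio, and which of the pair is higher, may therefore differ between the diets, which was not tested. The coding sequences of Slc25a23 and Slc25a25 were 69.1% identical over 1387 aligned bases. Slc25a23 lies on chromosome 17 from 57183134 to 57199286 with 10 exons, and Slc25a25 on chromosome 2 from 32270007 to 32286639 with 11. The pyrimidine nucleotide carriers were lower and further apart, Slc25a33 at 8.65 and Slc25a36 at 1.12 CPM per kilobase, the lowest of all members per kilobase of mRNA. Slc25a33 was 7.70-fold the level of Slc25a36, and 4.72-fold when CPM was not divided by length.

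In the amino acid and urea cycle group, Slc25a15, the ornithine carrier that the urea cycle needs, came next after Slc25a5. It had 351 CPM and 101 CPM per kilobase, the 93.6th percentile of the listed genes. Its gene lies on chromosome 8 from 23486026 to 23509093 and has 7 exons, and its mRNA of 3455 bases is longer than that of Slc25a5, which has 1238. Slc25a44, a carrier of branched-chain amino acids, was at 34.2 CPM per kilobase and Slc25a22, a glutamate carrier, at 24.0. Slc25a38, a glycine carrier of heme synthesis, was at 11.1. Slc25a12, an aspartate/glutamate carrier of the malate-aspartate shuttle, was at 5.15 and below the median of the listed genes. Its paralogue Slc25a13 is not in the table.

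Slc25a1, the citrate carrier that supplies acetyl units for lipid synthesis, was the third of the carriers per kilobase of mRNA, with 91.7 CPM per kilobase. In CPM it had 154, below Slc25a23 with 163. It lies on chromosome 16 from 17925304 to 17928312 and has 9 exons. Slc25a10, the dicarboxylate carrier, was at 34.4 and Slc25a21, the oxodicarboxylate carrier, at 4.27 CPM per kilobase. The listed Slc25a10 mRNA has 4000 bases and its nearest GENCODE transcript 2023, so its level per kilobase is uncertain. The 3 highest listed carriers per kilobase of mRNA, Slc25a5, Slc25a15 and Slc25a1, made up 63.1% of the summed level of the 22 listed. The 3 highest on each other scale held 48.9% in CPM and 53.1% per kilobase of coding sequence.

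Of the cofactor carriers, Slc25a16 was at 23.6 CPM per kilobase, Slc25a32, which carries folate and FAD, at 10.3, and Slc25a42, a coenzyme A carrier, at 8.64. Slc25a37, mitoferrin 1, which brings iron to the matrix, was at 5.43, and Slc25a30, a relative of the uncoupling proteins, at 8.01. Slc25a46, an outer membrane protein of the family, was at 11.9, Slc25a45 at 8.97 and Slc25a48 at 2.16. Slc25a36 and Slc25a48 were both under 5 CPM, at 3.44 and 3.24.

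**Figure D2:**
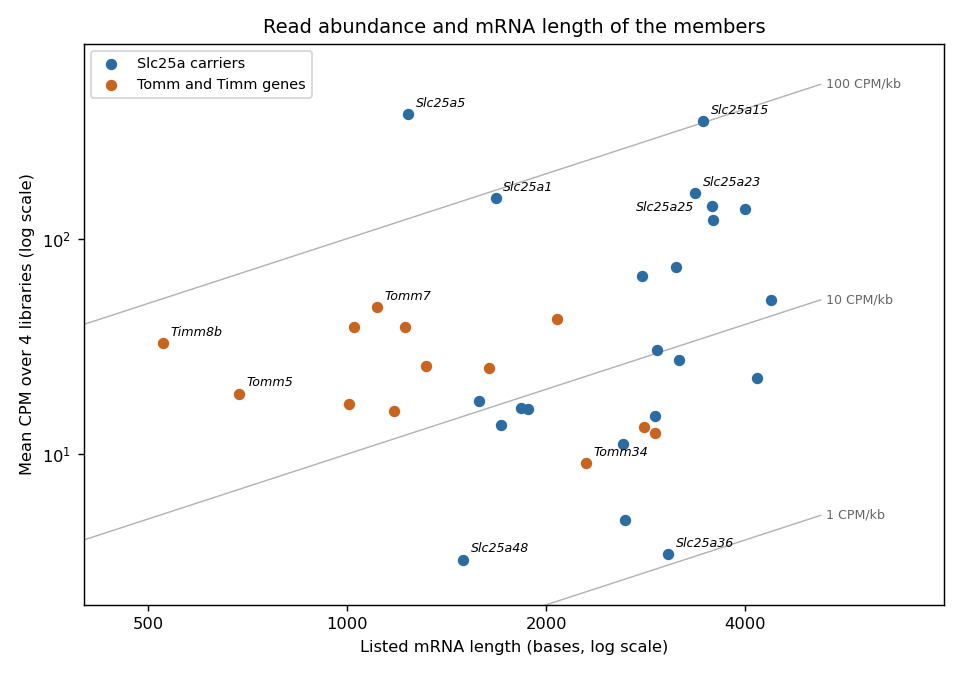
Mean CPM over 4 libraries against listed mRNA length for the 35 members, both on log axes, with grey lines of equal CPM per kilobase. The import genes lie mostly to the left, with a median of 1225 bases, at 9.09 to 47.9 CPM, whereas the carriers spread from 3.24 to 378 CPM.

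The import genes spanned a narrower range, from 3.95 to 62.0 CPM per kilobase, or 15.7-fold, against 272-fold for the carriers. Their median was 19.4 against 10.7 for the carriers. The import mRNAs were also shorter, with a median of 1225 bases against 2934.5 for the carrier mRNAs. In CPM, without division by length, the medians were 25.1 and 28.9, with the carriers higher. Neither order was tested.

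Of the small Tim chaperones, Timm8b had 62.0 and Timm13 31.7 CPM per kilobase. Both proteins escort hydrophobic precursors through the intermembrane space. Timm8b, on chromosome 9 from 50412006 to 50413425 with 2 exons, has the shortest listed mRNA of the members, 527 bases. It was at the 90.5th percentile of the listed genes per kilobase of mRNA, and at the 65.2nd in CPM.

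Of the TOM genes, the small subunit Tomm7 was at 43.2 CPM per kilobase, the receptor Tomm22 at 37.9, and the small subunits Tomm5 and Tomm6 at 27.8 and 16.9. Tomm40l, a paralogue of the channel protein Tomm40, was at 4.31, and Tomm34, a cytosolic co-chaperone of import, at 3.95. The 4 subunits Tomm5, Tomm6, Tomm7 and Tomm22 were above the median of the listed genes per kilobase of mRNA, and Tomm40l and Tomm34 below it. Tomm6 was at the 47.4th percentile in CPM, and Tomm40l at the 51.7th per kilobase of coding sequence, so both changed sides with the scale. The channel gene Tomm40 and the receptors Tomm20 and Tomm70a are not in the table. The Tomm6 transcript nearest in length to the listed one shares 86.7% of its 50-base stretches with annotated Prickle4 transcripts, so its level is uncertain where the authors' transcript set held both.

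The 3 listed TIM23 genes lay within 1.45-fold per kilobase of mRNA. Timm21 was at 19.4, Timm17b at 15.3 and the receptor Timm50 at 13.4 CPM per kilobase. In CPM the 3 had 25.5, 25.1 and 15.8, and Timm50 went from the 69.1st percentile of the listed genes to the 45.3rd. The listed lengths of Timm17b and Timm50 are more than 10% off those of the nearest GENCODE transcripts. Timm23, Timm44 and Timm17a are not in the table. Timm22, the channel through which the carriers enter the inner membrane, was at 4.74, on chromosome 11 from 76220645 to 76229794. It was at the 43.1st percentile of the listed genes per kilobase of mRNA, and at the 63.5th per kilobase of coding sequence. Timmdc1, which has a Timm symbol but acts in the assembly of respiratory complex I, was at 20.4.

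**Figure D3:**
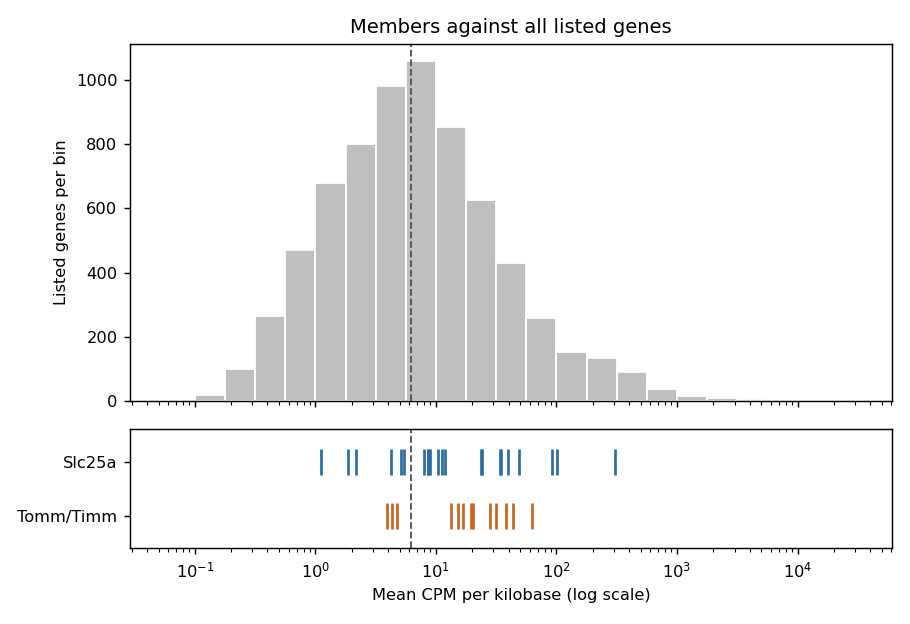
Number of listed genes per bin of mean CPM per kilobase (log axis, 7000 genes, top) and the 22 carriers and 13 import genes as ticks on the same axis (bottom), with the median of listed genes dashed. The carriers reach from 1.12 to 306 and the import genes from 3.95 to 62.0.

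Other genes of the same processes were set beside them. Of 22 import genes with other symbols, 13 were listed, with a median of 33.4 CPM per kilobase. The matrix chaperonins Hspd1 and Hspe1, which fold imported proteins, were at 236 and 158, and Pmpcb, a subunit of the peptidase that removes presequences, at 77.1. The outer membrane assembly protein Samm50 was at 49.5 and Grpel1, a co-chaperone of the import motor, at 43.2. Hspd1, Hspe1 and Pmpcb were above every listed Tomm and Timm gene. Of 19 other carriers and channels, 6 were listed, with a median of 40.8 CPM per kilobase. The outer membrane channels Vdac2 and Vdac3 were at 75.5 and 74.0, and the carrier relative Mtch2 at 70.9. Mcart1 was at 10.7, Sfxn5 at 9.84 and Ucp2, of the uncoupling protein family, at 2.28 CPM per kilobase.

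The annotated transcripts were compared by their parts. For 26 of the 35 the GENCODE vM1 transcript nearest in length was within 10% of the listed length. Among the 17 such carriers the coding sequence had a median of 957 bases and ran from 867 to 1506, while the 3′ UTR ran from 263 to 3023 bases. The 9 such import genes had a median coding sequence of 429 bases, from 168 for Tomm7 to 930 for Tomm34. The coding share of the transcript was 72.3% in Slc25a5, the highest of the 26, and 14.9% in Tomm7, the lowest. GC content ran from 40.7% in Slc25a46 to 59.1% in Slc25a1.

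**Figure D4:**
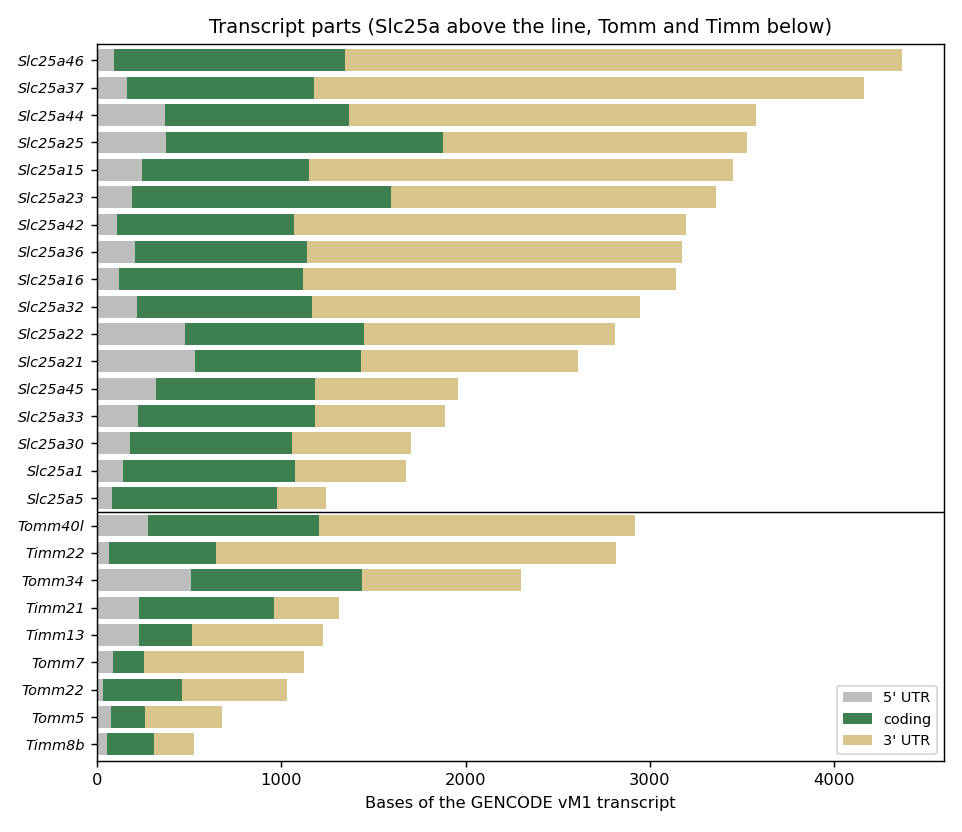
Length in bases of the 5′ UTR, coding sequence and 3′ UTR of the GENCODE vM1 transcript for the 26 members within 10% of the listed length, carriers above the line and import genes below it. Coding length in the 17 carriers shown runs from 867 to 1506 bases and the 3′ UTR from 263 to 3023. Carriers outside the 10% limit are not shown and are not covered by these ranges.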

How the data were processed

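The authors depleted ribosomal RNA from the liver RNA of 4 mice and sequenced it. They used Bowtie to place reads on mm9 RefSeq mRNAs, keeping the longest isoform of each mRNA and reads that aligned once, 2 mismatches being allowed. The authors ran edgeR on genes above 1 CPM in 3 or more samples. Versions of these tools were not stated. The log2 mean CPM was made by the authors with edgeR over all libraries and is used as deposited, as is the mRNA length. The other columns hold the authors' comparison of the diets (log2 fold change, p-value and FDR). They are not used, and the test of the diets that was planned for counts of single mice was not run. The rows are in the order of the authors' p-value and are only part of the genes, so a gene outside the table is not analysed here and the listed genes are not a random sample of liver genes.

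The mean CPM was 2 to the power of the deposited value, and was divided by the mRNA length in kilobases. The percentile of a gene is the share of listed genes below it. Transcript parts, exons and coordinates come from the GENCODE vM1 transcript nearest in length on NCBIM37, the same assembly as mm9. All 35 members were matched, 2 by synonym, and 9 were more than 10% off in length. Among the 9 are Slc25a10, Slc25a12 (2924 bases listed, 6351 in GENCODE) and Slc25a48 (1498 and 3374). Levels per kilobase of such members depend on which length is right. Exact 50-base stretches shared with transcripts of other genes were counted. The functions for level per kilobase, percentile and share gave back values known in advance from made-up data. The matching to GENCODE was not tested in this way.

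The members are described by role, except 1 that is not reported here by name, with values for the highest and lowest of each family, the highest of each role and members of paralogue groups. The members and lists were chosen with earlier results of these data known. Python 3.11.15, numpy 2.4.6, pandas 2.3.3, biopython 1.88 and matplotlib 3.10.9 were used.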

Additional observations from a re-analysis of the deposited data

How the results depend on the processing

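Levels were recomputed as CPM without division by length, against listed genes with a mean of at least 5 CPM, and, chosen after the data were seen, per kilobase of GENCODE coding length. The median level of carriers over import genes was 0.552 per kilobase of mRNA and turned to 1.15 in CPM. In CPM the median percentile of the import genes fell from 76.4 to 58.1. The share of the carriers held by the highest, which was Slc25a5 in each case, was 38.6%, and 20.8% in CPM and 23.0% by coding length. The ratio of Slc25a33 to Slc25a36 was 7.70, and 4.72 in CPM and 4.59 by coding length. The share of the 3 highest carriers was 63.1%, and 48.9% in CPM and 53.1% by coding length. Members above the median of the listed genes numbered 26, and 21 in CPM and 29 by coding length. With the minimum of 5 CPM they numbered 22 of 32. These 2 results and the other summary values stayed within 1.5-fold, or 10 percentile points, a wide limit for shares and counts. For single members, the percentile moved by more than 10 points for 14 of 35 in CPM (all lower), 10 of 32 with the minimum of 5 CPM (all lower) and 4 of 35 by coding length (all higher). The coding length of 9 members comes from a transcript of another length than the listed one. With the minimum of 5 CPM, Slc25a36 dropped out and its ratio could not be given. The coding lengths of RefSeq proteins planned beforehand were not used, and other normalizations, filters and the omission of each mouse were not run, because the values are means over all mice. No paired analysis was possible because the table holds 1 mean for each gene.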
